A study of Mus musculus with 24 samples.

Results

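H3K4me1 was compared between 2 deposited peak lists, 1 for Dnmt3a KO and 1 for WT endothelial cells of the mouse lung. The KO list held 48458 peaks and the WT list 49363, together 97821 of the 313065 peaks in the 8 lists of the series. Members were all intervals of the lists that the deposit names for H3K4me1 in the knockout and the wild type. In the KO group (genotype "ko" in the labels), endothelial cells sorted by FACS came from the lungs of Dnmt3a KO mice. In the WT group (genotype "wt"), they came from WT mice and were handled in the same way. The labels name 3 samples a group, and the series holds 24 samples over 4 histone marks. Each sample was profiled by ACT-seq, in which a Tn5 transposase bound to the antibody cuts and tags DNA where the antibody sits, and permeabilized yeast nuclei were added as a spike-in. The sources used here do not state which part of Dnmt3a was deleted, whether the deletion was limited to some cell types, the age and sex of the mice, or whether the 3 samples were pooled before peaks were called. Since 1 list stands for each genotype, no replicate spread, depth or peak height entered, no test between genotypes was possible, and all differences below are differences between 2 lists. Intervals in parentheses are exact Clopper-Pearson 95% intervals, which count each peak as independent and hold counting error alone.

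H3K4me1 is placed mainly by the methyltransferases KMT2C and KMT2D at enhancers and on the shoulders of active promoters, and it also marks enhancers that are primed but not active. DNMT3A methylates cytosine in CpG dinucleotides de novo, and its ADD domain binds the histone H3 tail when lysine 4 carries no methyl group. CpG-rich promoters are usually free of DNA methylation and carry H3K4me3, with H3K4me1 beside it.

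H3K4me1 at transcription starts differed between the lists, so 6 promoters are printed to show what such windows look like. They were chosen after their peaks were seen. Each sequence is RefSeq's for GRCm38.p6 (mm10), runs 5′ to 3′ on the gene's own strand from 250 bases before to 50 bases after the start, and has every CG dinucleotide in capitals. CG was found in 95.6% of all 20063 promoters of the same length. The promoter of Itprip (inositol trisphosphate receptor interacting protein, chr19:47919274-47919573, minus strand) and a start of Tspan9 (a tetraspanin, chr6:128035013-128035312, minus strand) met an H3K4me1 peak in KO and none in WT, and hold 19 and 10 CG. The promoters of Kit (receptor of stem cell factor, chr5:75574737-75575036, plus strand), Tgfbr2 (type II TGF-beta receptor, chr9:116175314-116175613, minus strand) and Car4 (carbonic anhydrase 4, a capillary surface enzyme, chr11:84957504-84957803, plus strand) met no H3K4me1 peak in KO and 1 in WT. They hold 20, 15 and 15 CG. The promoter of Efnb2 (ephrin-B2, an arterial ligand, chr8:8661193-8661492, minus strand) met a peak in both lists and holds 35 CG.
Itprip: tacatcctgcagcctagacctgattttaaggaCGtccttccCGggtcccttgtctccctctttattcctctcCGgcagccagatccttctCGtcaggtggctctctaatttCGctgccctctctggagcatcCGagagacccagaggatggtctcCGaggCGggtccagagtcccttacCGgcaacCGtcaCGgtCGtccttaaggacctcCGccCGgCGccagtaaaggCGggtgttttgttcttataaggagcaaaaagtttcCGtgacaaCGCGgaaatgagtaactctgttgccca
Tspan9: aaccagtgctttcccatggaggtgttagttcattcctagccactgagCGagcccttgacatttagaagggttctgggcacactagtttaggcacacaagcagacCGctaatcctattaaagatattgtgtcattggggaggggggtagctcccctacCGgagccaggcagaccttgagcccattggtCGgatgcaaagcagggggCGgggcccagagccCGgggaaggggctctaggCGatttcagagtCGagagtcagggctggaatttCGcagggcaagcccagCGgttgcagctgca
Kit: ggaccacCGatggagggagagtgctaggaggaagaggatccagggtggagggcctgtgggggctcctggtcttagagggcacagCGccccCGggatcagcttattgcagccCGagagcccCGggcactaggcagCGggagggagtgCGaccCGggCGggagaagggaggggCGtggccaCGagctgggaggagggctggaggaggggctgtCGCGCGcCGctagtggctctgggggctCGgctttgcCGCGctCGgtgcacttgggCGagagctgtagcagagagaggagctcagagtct
Tgfbr2: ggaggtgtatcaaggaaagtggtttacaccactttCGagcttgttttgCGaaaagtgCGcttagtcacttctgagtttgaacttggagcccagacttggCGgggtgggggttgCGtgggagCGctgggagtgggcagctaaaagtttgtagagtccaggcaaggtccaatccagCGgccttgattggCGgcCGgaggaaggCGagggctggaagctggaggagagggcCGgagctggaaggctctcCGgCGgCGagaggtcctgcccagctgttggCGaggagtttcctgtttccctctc
Car4: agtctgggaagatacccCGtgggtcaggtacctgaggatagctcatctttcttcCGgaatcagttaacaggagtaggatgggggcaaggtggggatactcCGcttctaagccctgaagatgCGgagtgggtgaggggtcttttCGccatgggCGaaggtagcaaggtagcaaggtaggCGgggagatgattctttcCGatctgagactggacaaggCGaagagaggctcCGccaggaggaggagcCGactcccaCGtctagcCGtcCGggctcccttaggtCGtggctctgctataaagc
Efnb2: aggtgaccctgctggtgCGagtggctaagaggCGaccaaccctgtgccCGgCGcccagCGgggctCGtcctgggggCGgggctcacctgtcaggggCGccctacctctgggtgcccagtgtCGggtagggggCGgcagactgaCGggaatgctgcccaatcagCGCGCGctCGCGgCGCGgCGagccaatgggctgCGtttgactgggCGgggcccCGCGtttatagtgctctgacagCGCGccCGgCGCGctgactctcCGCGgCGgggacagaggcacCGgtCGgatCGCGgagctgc

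KO had a peak of 150 bp at Itprip (chr19:47919270-47919419) and 1 of 234 bp at the Tspan9 start (chr6:128035033-128035266), and the window of Tspan9 met no H3K4me3, H3K27ac or H3K27me3 peak in either genotype. At the Kit start, KO had no peak and WT 1 of 276 bp (chr5:75574799-75575074). Where KO likewise had none, WT had at Tgfbr2 a peak of 396 bp (chr9:116175101-116175496), and at Car4 1 of 115 bp (chr11:84957771-84957885). H3K4me3 peaks of both genotypes met all 3 of these promoters. The Efnb2 peaks were of like width, 722 bp in KO and 762 bp in WT.

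The endothelial label was checked on marker lists. All 24 of 24 pan-endothelial genes had an H3K4me1 peak within the gene or 5000 bp of it, with 104.6 kb covered in KO and 78.6 kb in WT over the list. Of mural and smooth muscle markers 5 of 14 had one (5.59 kb in KO, 4.91 kb in WT). Of fibroblast markers 8 of 15 did (7.04 kb in KO, 5.24 kb in WT), of lung epithelial markers 8 of 16 (11.3 kb in KO, 9.32 kb in WT) and of leukocyte markers 9 of 16 (10.5 kb in KO, 8.44 kb in WT). Over all 20665 genes, 64.6% had a peak in either list, so the shares of these 4 lists stand below that of all genes, most of them not far. Neither list had a peak over Acta2, Pdgfrb, Col1a2, Col3a1, Epcam, Nkx2-1, Ptprc or Itgam. Other markers of these lists had several, such as Hopx (7 in KO, 5 in WT), Lcp1 (9 in KO, 10 in WT), Myh11 (4 in each) and Fn1 (2 in KO, 3 in WT). In bulk cells, fewer cells with a mark and less mark per cell cannot be told apart. Over Dnmt3a itself, KO had 14 H3K4me1 peaks with 7690 bp and WT 12 with 6061 bp, which does not check the deletion.

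The lists held nearly the same number of peaks, but KO peaks were wider. KO peaks covered 25000641 bp with a mean width of 516 bp, and WT peaks 20934828 bp with a mean of 424 bp. The difference ran in opposite directions at the ends of the width range. Of peaks up to 150 bp, KO had 2685 and WT 4865. From 501 to 1000 bp KO had 18229 and WT 15216, from 1001 to 1500 bp KO had 3119 and WT 1130, and from 1501 to 2000 bp KO had 365 and WT 34. The narrowest peak was 113 bp in KO and 91 bp in WT, so the smallest interval the lists hold also differs. For comparison, covered length in KO over WT was 1.19 for H3K4me1, while H3K27ac gave 0.733, H3K4me3 1.46 and H3K27me3 1.90. Depth and peak-calling settings can change widths and covered length, and their part was not tested.

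**Figure D1:**
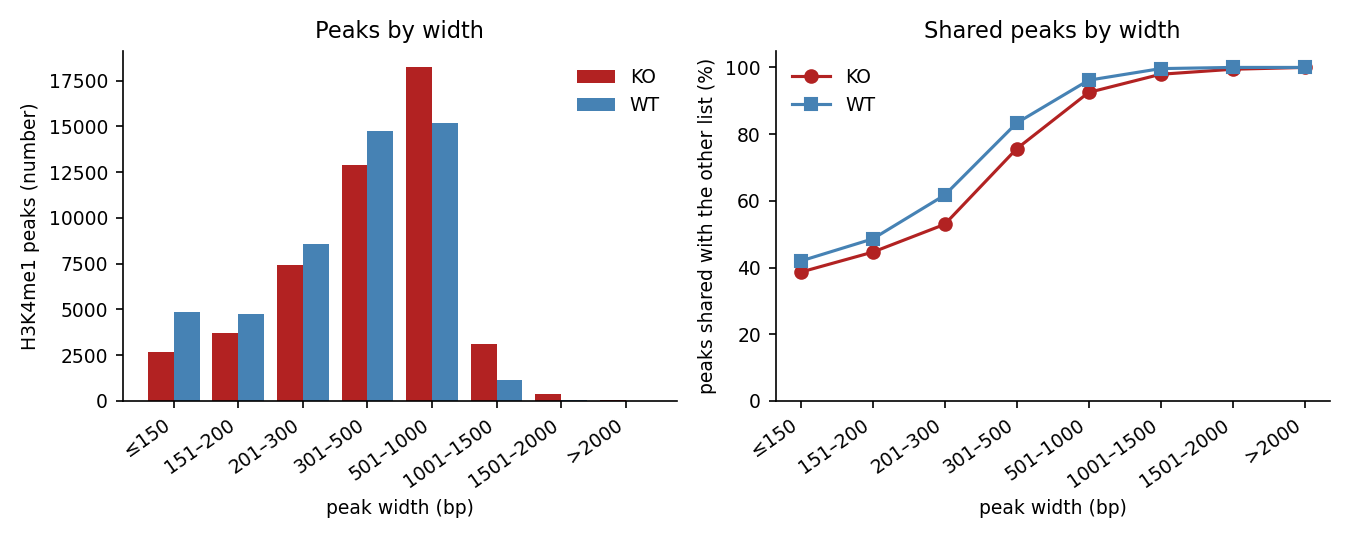
Left, number of H3K4me1 peaks by peak width in bp, with KO in red and WT in blue. Right, the percentage of peaks of each width that overlap a peak of the other list by at least 1 bp. KO holds fewer peaks up to 500 bp and more above, and in both lists the shared percentage is over 97% above 1000 bp.

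Sharing required at least 1 bp in common with any peak of the other list. KO-only peaks numbered 11780 and WT-only peaks 11602. Both were narrow, with medians of 256 bp in KO (quartiles 181 and 380) and 213 bp in WT (152 and 307), against 540 bp for shared peaks of KO and 451 bp for those of WT. Wide peaks were nearly all shared: of peaks of 1001 to 1500 bp, 97.9% in KO and 99.6% in WT had a partner, while of those up to 150 bp 38.6% in KO and 42.0% in WT did. The 2 lists had 15.7 Mb in common. KO had 5.72 Mb outside WT peaks that lay in shared peaks and 3.58 Mb in KO-only peaks. WT had 2.37 Mb outside KO peaks in its shared peaks and 2.87 Mb in WT-only peaks. More of the length found in KO alone thus lay at peaks that WT also had than in KO-only peaks. The 2 counts of genotype-only peaks depend on the peaks kept. Leaving peaks under 500 bp out of both lists gave 8825 KO-only and 3440 WT-only peaks. These include peaks whose only partners were under 500 bp. With all peaks kept, those of 501 to 1000 bp held 1368 KO-only and 583 WT-only peaks. With the narrowest KO peaks left out until both lists covered the same length there were 3369 KO-only and 20404 WT-only. That trim took peaks from KO alone, so by construction KO-only peaks could only fall and WT-only peaks only rise.

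Genotype-only peaks lay in different places relative to genes. Within 1000 bp of an annotated end of 1 of 20665 protein-coding genes lay 7.89% of KO-only peaks (7.41 to 8.40) and 22.1% of WT-only peaks (21.3 to 22.8). Inside genes lay 60.7% of KO-only peaks (59.8 to 61.6) and 45.9% of WT-only peaks (45.0 to 46.8). Between genes the shares were close, 31.4% in KO (30.6 to 32.3) and 32.0% in WT (31.2 to 32.9). Shared peaks of KO stood at 19.4%, 47.9% and 32.7%, nearer to the WT-only peaks than to the KO-only ones. The median distance to the nearest gene end was 21.5 kb for KO-only, 15.0 kb for WT-only and 17.5 kb for shared peaks of KO. Right outside the gene ends the order turned: 15.5% of KO-only peaks lay from 1 to 5 kb of one (14.8 to 16.1), against 12.6% of WT-only peaks (12.0 to 13.2). Of genes, 486 had H3K4me1 at an end in KO only (2.35% of 20665) and 1968 in WT only (9.52%). These numbers depend on the peaks kept: 1141 in KO only and 1459 in WT only once peaks under 500 bp were left out. With equal covered length they were 187 in KO only and 4029 in WT only, a direction set by trimming KO alone.

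Where the start of transcription and its strand were known (20063 starts of 16437 genes on 18 chromosomes), the difference lay on the start itself. Within 500 bp upstream of a start were 1.96% of KO-only peaks and 9.01% of WT-only peaks, and within 500 bp downstream 1.69% of KO-only and 7.29% of WT-only peaks. From 500 to 2000 bp downstream the shares met, at 3.99% in KO and 4.02% in WT. From 2000 to 5000 bp downstream the order turned, with 4.69% of KO-only peaks (4.31 to 5.09) and 2.65% of WT-only peaks (2.36 to 2.97).

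The same turn was seen base by base. An H3K4me1 peak covered 28.4% of all starts in KO and 36.2% in WT. At 1000 bp upstream it covered 2.27% in KO and 2.19% in WT, and at 2000 bp downstream 1.77% in KO and 1.15% in WT. The gap was found at starts with H3K4me3. Of the 8561 starts with H3K4me3 in both genotypes, H3K4me1 covered 58.2% in KO and 73.6% in WT, and 2000 bp downstream of them 2.35% in KO and 1.21% in WT. Of the 1432 starts with H3K4me3 in KO only, it covered 26.4% in KO and 39.4% in WT. Of the 9927 without H3K4me3 it covered 3.22% in KO and 3.66% in WT. In both lists H3K4me1 was highest within 100 bp of the start and not on its shoulders. H3K4me3 peaks covered more starts in KO (47.8%) than in WT (40.6%), opposite to H3K4me1. The H3K4me3 lists held 22724 peaks in KO, with a median width of 431 bp, and 14984 in WT, with a median of 506 bp, and their part in the H3K4me1 difference was not tested.

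**Figure D2:**
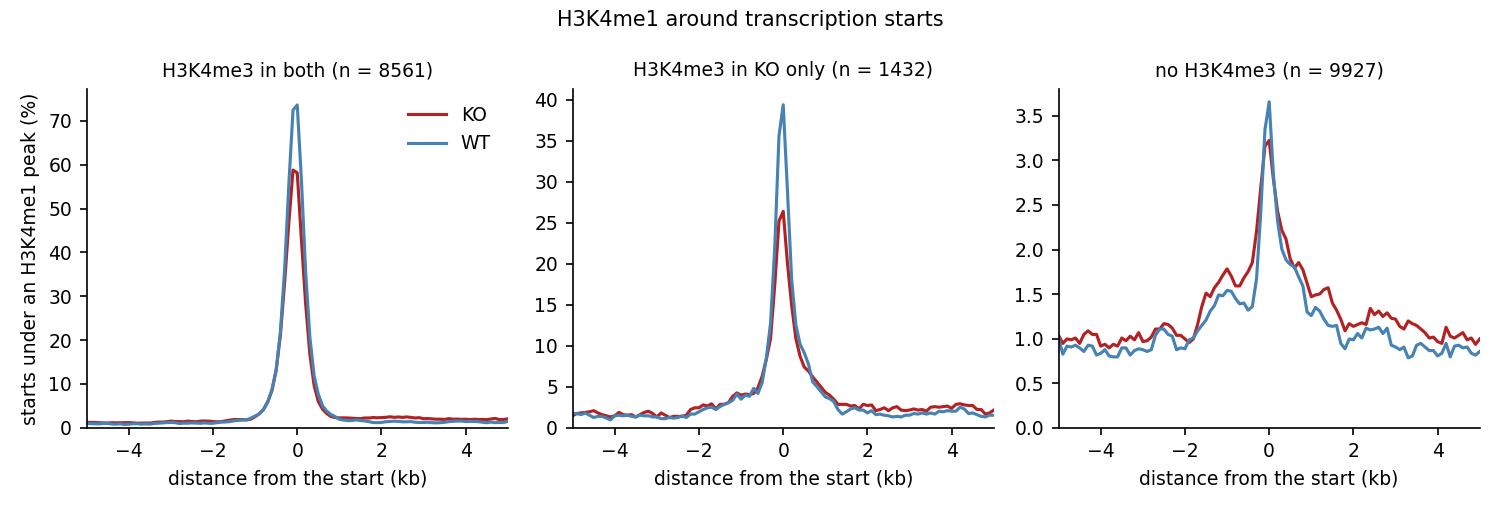
Percentage of transcription starts under an H3K4me1 peak (y axes differ in range) against distance from the start in kb, negative upstream, for KO (red) and WT (blue). At starts with H3K4me3 in both genotypes KO reaches 58.2% and WT 73.6% at the start, while 2000 bp downstream KO lies above WT.

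The promoters that met H3K4me1 in WT only were as rich in CpG as those that met it in both lists. In the window of 300 bp, 1947 promoters met it in WT only, with a median of 23 CG (quartiles 15 and 31), and 6121 in both, also with a median of 23. The 450 that met it in KO only had a median of 15.5 (8 and 24), and the 11545 with no H3K4me1 a median of 5. At least 10 CG were present in 68.7% of KO-only and 90.0% of WT-only promoters. Among promoters without H3K4me3 in either genotype, the medians were 8 for the 167 met in KO only, 15 for the 209 met in WT only, 6 for the 276 met in both and 4 for the rest. At promoters with H3K4me3 in both genotypes they were close, 22 in KO only and 25 in WT only.

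Widths of peaks that paired 1 to 1 gave the same division without using peaks found in 1 list. Over 34525 pairs the KO peak was the wider in 64.05% (63.5 to 64.6). Each pair took its location and its other marks from the KO peak alone, whose width is also in the ratio. At gene ends, over 6810 pairs, the median ratio of KO to WT width was 0.985, and 48.0% were wider in KO (46.8 to 49.2). Inside genes the median ratio was 1.17 over 16465 pairs, with 68.6% wider in KO (67.8 to 69.3), and between genes 1.15 over 11250 pairs, with 67.2% (66.3 to 68.1). The pairs at gene ends had a median width of 479 bp in KO and 492 bp in WT, and those inside genes 544 bp in KO and 444 bp in WT. The median at gene ends lay above 1 under some settings: 1.04 with peaks under 500 bp left out, 1.07 with equal covered length and 1.01 with ends taken as 2000 bp. Under each of these it was below that of the pairs away from gene ends, which ranged from 1.13 to 1.24.

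Pairs whose KO peak met H3K4me3 of both genotypes, at any location, had a median ratio of 0.984 (7474 pairs). Those whose KO peak met no H3K4me3 had 1.19 (22020 pairs). Pairs with H3K4me3 in KO only had 1.15 (4689 pairs). Among pairs without H3K4me3, those with H3K27ac in both genotypes, the usual signature of active enhancers, had 1.17 (10751 pairs), and those with no H3K27ac, as at primed enhancers, 1.23 (5922 pairs). KO peaks were the wider at both kinds. Ranked by mean width, the widest pairs (8642) had a median ratio of 1.17 and the narrowest (8623) 1.05.

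**Figure D3:**
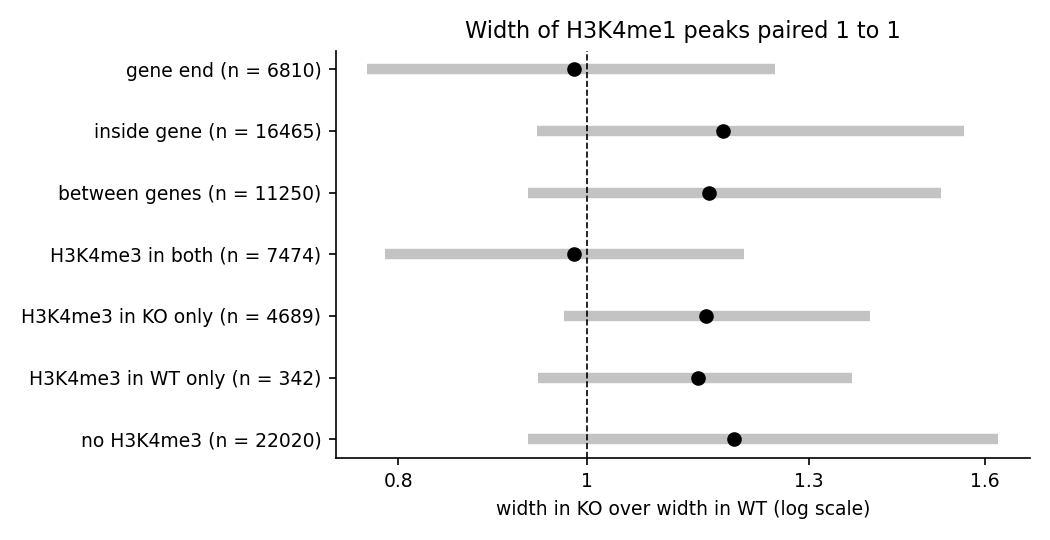
Width of the KO peak over the width of its WT partner (log scale) for peaks paired 1 to 1. Groups are by the location of the KO peak and by H3K4me3 met by it. Points are medians, grey bars the middle 50% of pairs and the dashed line equal widths. Pairs at gene ends (0.985) and with H3K4me3 in both genotypes (0.984) lie close to 1, and the other groups above 1, up to 1.19 without H3K4me3.

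The single pairs named next are from those with the largest changes of width, while all pairs had quartiles of 0.902 and 1.48. Their narrow partners were close to the narrowest peaks of the lists, 113 bp in KO and 91 bp in WT. Inside Gata3, the gene of a GATA transcription factor, a peak of 1080 bp in KO (chr2:9870942-9872021) stood on 1 of 92 bp in WT (chr2:9871231-9871322), with no other mark in either genotype. Inside Ncald, a neuronal calcium sensor, KO had 1413 bp (chr15:37771100-37772512) and WT 117 bp, with H3K27ac in both. Inside Rps6ka1, a ribosomal S6 kinase, KO had 1332 bp and WT 116 bp. The opposite was found 89 bp from an end of Dkk2, a secreted modulator of Wnt signalling. There KO had 117 bp (chr3:132085355-132085471) and WT 904 bp, with H3K27ac and H3K4me3 of WT alone and H3K27me3 of both genotypes. In Arhgef28 KO had 130 bp and WT 1205 bp, and in Tmem51, a transmembrane protein gene, KO had 123 bp and WT 1008 bp. KO peaks also joined what WT listed apart. In KO 1405 peaks met at least 2 WT peaks, and in WT 392 peaks met at least 2 KO peaks. A KO peak of 2058 bp, 41.0 kb from Tbc1d1, a Rab GTPase-activating protein gene (chr5:64391445-64393502), met 5 WT peaks that covered 1217 bp between them. In the other direction, a WT peak of 1467 bp next to Hes1, a repressor induced by Notch (chr16:30069510-30070976), met 3 KO peaks of 1181 bp together.

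Genotype-only peaks often carried none of the other 3 marks. None of H3K27ac, H3K4me3 or H3K27me3, in either genotype, met 66.2% of KO-only peaks (65.3 to 67.0), 49.1% of WT-only peaks (48.2 to 50.0) and 16.1% of shared peaks of KO. Inside genes the shares were 70.4% of KO-only and 62.2% of WT-only peaks. At gene ends, H3K4me3 of KO met 40.9% of KO-only and 77.0% of WT-only peaks, and H3K4me3 of WT met 32.5% of KO-only and 63.4% of WT-only peaks. Polycomb's H3K27me3 lay on many gene-end peaks too: its KO list met 26.7% of KO-only, 41.8% of WT-only and 62.0% of shared peaks of KO there. The median width at gene ends was 253 bp for KO-only, 260 bp for WT-only and 480 bp for shared peaks of KO.

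The width difference was present on every chromosome. The KO over WT ratio of covered length lay between 1.17 (chromosome 5) and 1.24 (chromosome 12) and was above 1 on 19 of 19, and the median peak was wider in KO on 19 of 19. The ratio of peak numbers lay between 0.962 (chromosome 7) and 1.01 (chromosome 12). KO-only over WT-only peaks ran from 0.922 on chromosome 7, with 617 KO-only and 669 WT-only peaks, to 1.16 on chromosome 12, which carries Dnmt3a, with 557 KO-only and 480 WT-only. Peak density was lowest on chromosome 14, with 16.4 peaks per Mb in KO and 16.5 in WT, and highest on chromosome 19, with 25.2 in KO and 25.8 in WT. It followed gene density across the 19 chromosomes (Pearson r = 0.557 in KO and 0.569 in WT), as a description of chromosomes that share 1 list.

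KO-only peaks lay nearer to shared peaks than WT-only peaks did. The median distance from a KO-only peak to the nearest shared KO peak was 5.15 kb, and 49.3% lay within 5 kb. For WT-only peaks and shared WT peaks these values were 9.62 kb and 34.5%. Shared peaks lay a median of 6.44 kb from another shared peak in KO and 5.93 kb in WT. KO-only peaks were thus nearer to the spacing of shared peaks than WT-only peaks were. Farther than 50 kb from any shared peak were 6.20% of KO-only and 14.9% of WT-only peaks. KO-only peaks also lay closer to each other, with a median of 19.2 kb, against 34.4 kb for WT-only peaks.

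Clusters were runs of at least 3 peaks of 1 list with gaps up to 12.5 kb, the spacing often used to stitch super-enhancers. KO had 5461 clusters with 57.7% of its peaks, and WT 5475 with 53.3%. Clusters of 10 or more peaks numbered 441 in KO and 374 in WT, and those of 20 or more 48 in KO and 18 in WT. Of genotype-only peaks, 60.8% of KO-only (59.9 to 61.7) and 43.5% of WT-only (42.6 to 44.4) were in a cluster of their list, while for shared peaks the shares were 56.7% in KO and 56.3% in WT. In KO 75.0% of clusters met a WT cluster, and in WT 76.4% met a KO cluster. With a gap of 5000 bp there were 3457 clusters in KO and 3091 in WT. With peaks under 500 bp left out there were 1605 in KO and 800 in WT. Equal covered length, which left out KO peaks alone, gave 2903 in KO and 5475 in WT.

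The 5 longest KO clusters lay at Denn2b, Itga6, Col4a2, Stard13 and Bahcc1. At Denn2b, a Rab exchange factor gene, 33 KO peaks spanned 188.6 kb (chr7:109518849-109707430), where WT had 30. At Itga6, an integrin subunit that binds laminin, 33 peaks spanned 170.9 kb, where WT had 28. At Col4a2 and Col4a1, which encode the collagen IV of basement membranes, 37 peaks spanned 168.5 kb, where WT had 29, and the KO peaks covered 20.3 kb of this and the WT peaks 15.6 kb. In WT, the longest were at Rcsd1 (131.2 kb, 30 peaks), Mtss1 (130.8 kb), Col4a2 (128.1 kb), Gnai2, an inhibitory G protein, and Itga1, a collagen-binding integrin subunit. Clusters with no peak of the other list were few and short, 50 in KO and 53 in WT. Among them were 4 KO peaks over Dbn1, an actin-binding protein gene (chr13:55479207-55486610), and 4 WT peaks over Tbx2 (chr11:85832558-85844868).

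Long genes with many peaks led the counts over genes and their flanks of 5000 bp. Most shared KO peaks were at Arhgap26 (77), Prkce, protein kinase C epsilon (45), the sialyltransferase gene St6galnac3 (40), Frmd4a (39), Ldlrad4, an inhibitor of TGF-beta signalling (38), the transcription factor genes Foxp1 (38) and Tcf4 (36), Dock9, a Cdc42 activator (34), the cAMP phosphodiesterase gene Pde4d (34) and the receptor phosphatase gene Ptprg (32), with Lrmda level at 32. Per length, shared KO peaks were densest at Hes1, with 5 over 12.4 kb, where WT had 3 peaks. The actin-binding Tagln2 (6), Arhgef25 (6), the caveolar coat gene Cavin1 (7) and Ccdc102a (7) followed. Hes1, Tagln2 and Cavin1 had no genotype-only peak.

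KO-only peaks were most numerous at Tcf4, with 23 KO-only and 10 WT-only peaks, and then at Ptprg (20 KO-only, 14 WT-only), Prkce (19 KO-only, 10 WT-only), Ncald (18 KO-only, 6 WT-only), Pde4d (17 KO-only, 4 WT-only), Foxp1 (16 KO-only, 11 WT-only) and Arhgap26 (16 KO-only, 11 WT-only). Adgrl2, Rapgef2, Ext1, Nfia and Nckap5 had 15 KO-only peaks each. The largest excess of KO-only peaks was at Tcf4 and Pde4d (13 more each), Ext1, which builds heparan sulfate, and Ncald (12 more each) and, among those level at 11 more, Casz1, a zinc-finger factor (14 KO-only, 3 WT-only), Ttc28 (14 KO-only, 3 WT-only) and Nckap5 (15 KO-only, 4 WT-only). By density they were led by Prcd (6 KO-only, 1 WT-only), the semaphorin gene Sema7a (5 KO-only, 1 WT-only), Itprip (5 KO-only, 0 WT-only), the BMP co-receptor gene Rgmb (5 KO-only, 0 WT-only) and Txndc5 (5 KO-only, 2 WT-only). In Prcd the 6 KO-only peaks, 121 to 405 bp wide, lay in a row from 116661272 to 116663513 on chromosome 11, and no other mark met them.

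WT-only peaks were most numerous at Ptprg (20 KO-only and 14 WT-only) and Prkg1, the kinase activated by cyclic GMP (6 KO-only, 14 WT-only). Cdk14 (14 KO-only, 12 WT-only), Frmd4a (13 KO-only, 12 WT-only), Immp2l (2 KO-only, 12 WT-only), the phosphodiesterase gene Pde3a (9 KO-only, 11 WT-only), Fbxl17 (8 KO-only, 11 WT-only), Foxp1, Arhgap26 and Ldlrad4 (12 KO-only, 10 WT-only) followed, and Tcf4, Prkce and St6galnac3 also had 10 WT-only peaks. Ptprg, Foxp1 and Arhgap26 were also among the 10 genes with most KO-only peaks. The largest excess of WT-only peaks was at Immp2l, a mitochondrial peptidase gene, Prkg1, the cation exchanger gene Slc24a3 (0 KO-only, 7 WT-only), Iqca (0 KO-only, 6 WT-only) and Zhx2, a homeobox factor (1 KO-only, 7 WT-only), with Csgalnact1 and Akap6 level with Zhx2 at 1 KO-only and 7 WT-only. Over Slc24a3 H3K27ac had 8 peaks in KO and 27 in WT, where the whole H3K27ac lists held 44484 in KO and 81112 in WT. By density WT-only peaks were led by Pinx1 (1 KO-only, 6 WT-only), Cyyr1 (4 KO-only, 8 WT-only), Sema6a (5 KO-only, 9 WT-only), the RNA-binding protein gene Qk (5 KO-only, 8 WT-only) and Reep3 (4 KO-only, 6 WT-only).

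The spread over genes differed between the lists. KO-only peaks touched 4795 genes and WT-only peaks 6120, while KO-only peaks were more often many to a gene: 70 genes had 10 or more KO-only peaks and 13 had 10 or more WT-only. KO-only over WT-only peaks gave a ratio of 0.632 over genes up to 10 kb long, 0.734 from 10 to 30 kb, 0.998 from 30 to 100 kb, 1.27 from 100 to 300 kb and 1.23 above.

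**Figure D4:**
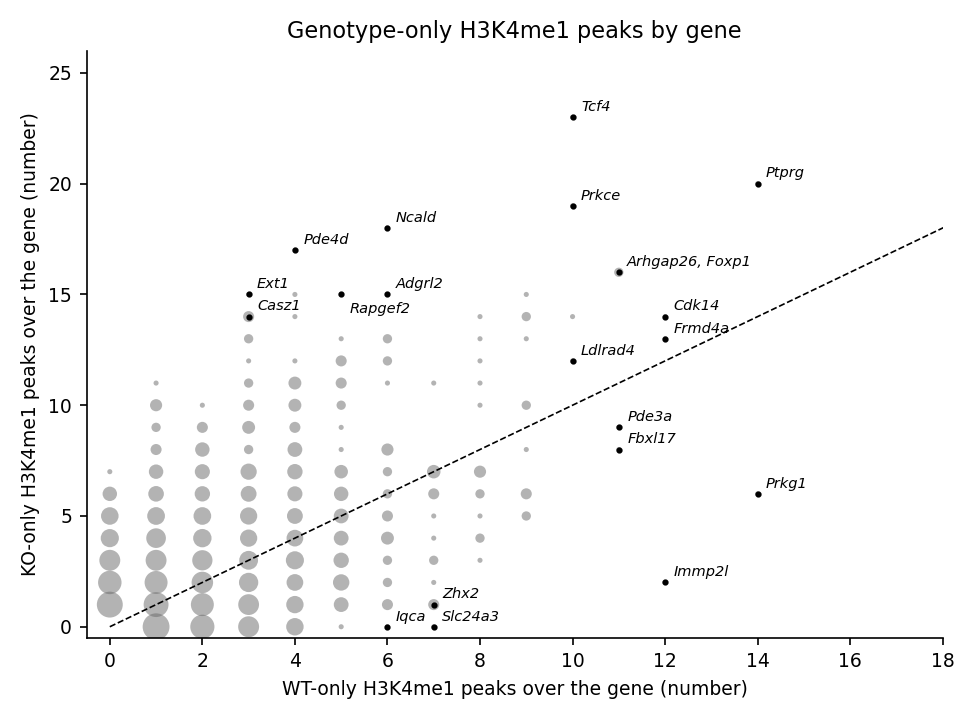
KO-only peaks (y axis) against WT-only peaks (x axis) over each gene and 5000 bp on both sides; grey dots grow with the log of the number of genes at that pair of counts, black dots are genes labelled by name and the dashed line marks equal counts. Tcf4 stands highest with 23 KO-only and 10 WT-only peaks, and Immp2l, with 2 KO-only and 12 WT-only peaks, lies farthest below the line.

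Covered length over genes was compared for the 5748 genes with at least 1000 bp under the peaks of either list. The median gene had a KO over WT ratio of 1.22, and 73.2% of genes were above 1. At least 2-fold more was found in KO at 406 genes (7.06%) and in WT at 180 (3.13%). With equal covered length these counts were 229 in KO and 519 in WT, a direction set by trimming KO alone. With peaks under 500 bp left out they were 1248 in KO and 183 in WT. In KO the genes with most covered length among them were Tspan9 (16239 bp in KO, 8045 bp in WT), the homeobox gene Meis2 (11273 bp in KO, 5361 bp in WT), Klf12 (11177 bp in KO, 5427 bp in WT), Zeb2, a repressor linked to epithelial-mesenchymal transition (10304 bp in KO, 3642 bp in WT), and Acvr1, a BMP type I receptor (8057 bp in KO, 3848 bp in WT). In WT they were Spata17 (1226 bp in KO, 2672 bp in WT), the zinc transporter gene Slc30a7 (1091 bp in KO, 2402 bp in WT), Trappc10 (499 bp in KO, 2139 bp in WT), Vxn (925 bp in KO, 2075 bp in WT) and Iqca (489 bp in KO, 2059 bp in WT). These leading genes of WT were far less covered than those of KO.

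Over all genes tested, 7.06% passed 2-fold in KO and 3.13% in WT, and 73.2% had a ratio above 1, which are the shares to set beside the endothelial and signalling lists. Of 24 pan-endothelial genes tested, 21 had a ratio above 1, with a median of 1.31, and 1 passed 2-fold in KO and 0 in WT. Cdh5, VE-cadherin, had 6399 bp in KO and 3800 bp in WT. Pecam1, an adhesion molecule of endothelial junctions, had 6703 bp in KO and 4101 bp in WT, and the angiopoietin receptor gene Tek 9311 bp in KO and 6349 bp in WT. The VEGF receptor genes gave the same order, Kdr with 6118 bp in KO and 4959 bp in WT and Flt1 with 13622 bp in KO and 9881 bp in WT. Of 16 arterial genes 14 were above 1 (median 1.26, with 2 called in KO), of 15 Notch genes 14 (median 1.34, 2 in KO) and of 22 BMP and TGF-beta genes 16 (median 1.31, 2 in KO). General capillary genes had a median of 1.12 (8 of 11 above 1). Of aerocyte genes, those of the large gas-exchange capillary cells, 6 of 9 were above 1, with 1 called in WT. Their median of 1.16 leaves out the called gene, Tbx2, which had 0 bp in KO and so no log ratio. The venous and lymphatic lists had 5 and 3 genes tested, all above 1. These medians stand beside 1.22 over all genes tested.

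**Figure D5:**
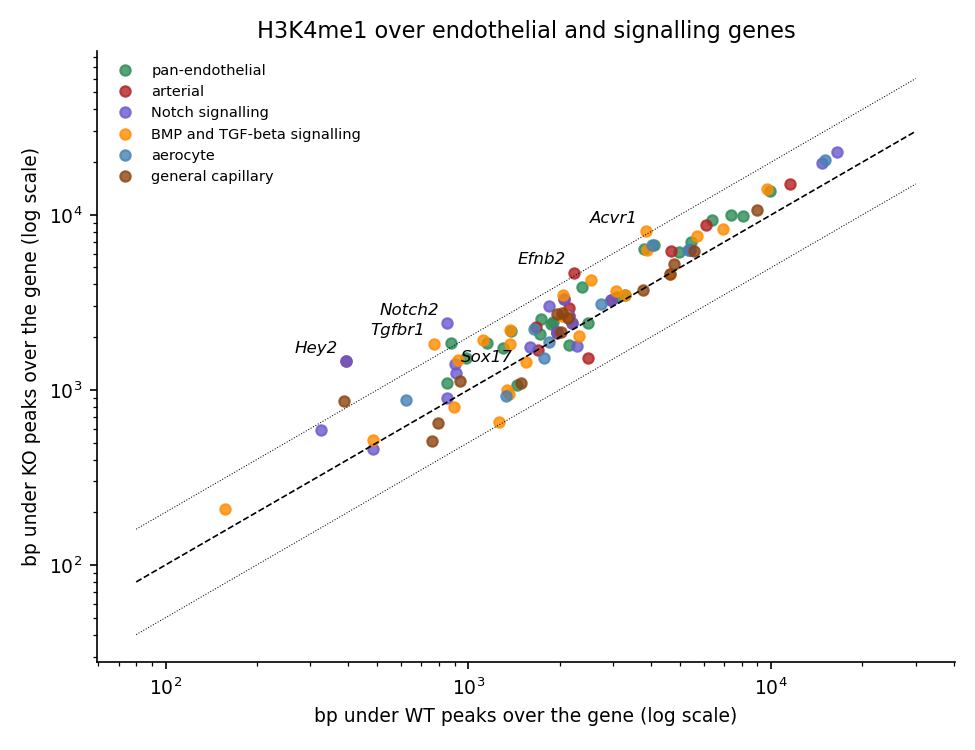
Bases under KO peaks (y axis) against bases under WT peaks (x axis), both on log scales, over members of 6 gene lists with a peak base in both lists; the dashed line marks equal and the dotted lines 2-fold different length. The named genes passed 2-fold with at least 1000 bp in KO, from Hey2 (1456 bp in KO, 395 bp in WT) to Acvr1; Tbx2, at 0 bp in KO, is not drawn.

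List members past 2-fold in KO were Sox17, Efnb2, Hey2, Notch2, Acvr1, Tgfbr1 and Spi1. Sox17, an arterial transcription factor gene at chr1:4490928-4497426, had 1841 bp in 5 peaks in KO and 874 bp in 2 peaks in WT. Its 3 KO-only peaks were 253, 697 and 262 bp wide, and the widest (chr1:4496503-4497199) met H3K27ac and H3K4me3 peaks of both genotypes. Efnb2 had 11 peaks with 4663 bp in KO and 7 with 2232 bp in WT. Of its 5 KO-only peaks, 3 met no other mark and 2 met H3K27ac of WT. Hey2, a repressor downstream of Notch, had 914 bp at its start in KO (chr10:30842381-30843294) against 395 bp in WT, and a KO-only peak of 542 bp at 1345 bp from it. Notch2, a Notch receptor, had 2401 bp in 4 peaks in KO and 852 bp in 2 peaks in WT. H3K27me3 had 4062 bp in KO and 2145 bp in WT over Hey2 and 8234 bp in KO and 2528 bp in WT over Notch2, beside a ratio of 1.90 for covered length in KO over WT of the whole H3K27me3 lists, and its part was not tested.

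The TGF-beta receptors differed in form. Tgfbr1, the type I receptor, had 1 shared peak at its start, 727 bp in KO and 769 bp in WT, and 4 KO-only peaks of 207 to 396 bp in the gene and beyond it, for 1835 bp in KO and 769 bp in WT. Acvr1 had 20 peaks in KO and 13 in WT, with 8 KO-only peaks and 1 WT-only. Tgfbr2 had 8252 bp in KO and 6927 bp in WT in spite of the missing KO peak at the promoter printed above. Bmp2, a BMP ligand, went the other way, with 657 bp in 2 peaks in KO and 1265 bp in 5 peaks in WT, without passing 2-fold. At their ends, 5 of 27 BMP and TGF-beta genes had H3K4me1 in WT only (Acvr2a, Bmp2, Bmp6, Bmpr1a and Tgfbr2), beside 9.52% of all genes. In KO only there were 0, beside 2.35%. In both lists 18 of the 27 had it and in neither 4, beside 37.1% and 51.1% of all genes. The base of all genes thus holds more genes without H3K4me1 at an end, and a higher WT-only share is no trait of the list by itself.

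Tbx2, a T-box factor gene on the aerocyte list (chr11:85832615-85841948), had 0 peaks in KO and 4 in WT, with 1190 bp. The first, of 386 bp (chr11:85832558-85832943), lay at 1 end of the gene, where H3K4me3, H3K27ac and H3K27me3 peaks of both genotypes were listed, and the others, of 140, 391 and 273 bp, beyond the other end. H3K27me3 covered 5475 bp over Tbx2 in KO and 1275 bp in WT, and H3K27ac 612 bp in KO and 1153 bp in WT, where the whole lists gave KO over WT ratios of 1.90 for H3K27me3 and 0.733 for H3K27ac. The part of these marks was not tested. With Car4, Fibin and Igfbp7, 4 of 12 aerocyte genes had H3K4me1 at an end in WT only, beside 9.52% of all genes. In KO only there were 0, beside 2.35%. In both lists 6 of the 12 had it and in neither 2, beside 37.1% and 51.1% of all genes. The remaining list members past 2-fold were Spi1, a myeloid transcription factor gene of the leukocyte list (1138 bp in KO, 495 bp in WT), Mbd6 (708 bp in KO, 1751 bp in WT), whose flanks hold the same peaks as those of its neighbour Ddit3, and Chmp2a (419 bp in KO, 1214 bp in WT).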

How the data were processed

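The values analysed were the first base, last base and width in bp of each peak, of the unit class other, as the authors deposited them, in 1 list a mark and genotype on chromosomes 1 to 19. The lists carry no score or p per peak, and the depth of each sample is unknown. Reads were handled with MACS2 2.1.2.1, Bowtie2 2.2.6, Trim Galore 0.4.4, deepTools 3.1.1 and SAMtools, against builds R64 and mm10, per the submitters' processing notes. The sources used here do not give their roles and settings, the peak threshold or any pooling of the 3 samples a group.

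Comparisons ran in Python 3.11.15 with scipy 1.17.1, pandas 2.3.3 and numpy 2.4.6, and matplotlib 3.10.9 drew the plots. Sharing needed 1 bp of overlap. Genes were the 20665 protein-coding genes of RefSeq's GRCm38.p6 table, which has no strand, so either end was used within 1000 bp, and starts came from its promoter table (16437 genes matched). Peaks were counted over genes by midpoint, with 5000 bp added on both sides. A gene counted as 2-fold different if the higher list covered at least 1000 bp. The overlap and counting steps were checked on simulated data and against exhaustive search.

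Named genes followed a rule. For shared, KO-only and WT-only peaks these were the 10 genes with most peaks and the 5 with most per 100 kb among those with at least 5. Added were the 5 largest differences each way, the 5 longest clusters, the 3 widest or most often joined peaks and the 5 pairs with the largest change of width, list members past 2-fold and Dnmt3a. Placeholder symbols (Gm and Rik) and genes sharing most of their peaks with a named one were passed over. Of genes with equal counts the shorter came first, and those level with the last are named too, except for an item not reported here. Other named genes were chosen after their values were seen. The members and lists were chosen with earlier results of these data known. The settings varied were width limits, equal covered length, merging of close peaks, other overlaps, distances, gaps and counts.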

Additional observations from a re-analysis of the deposited data

How the results depend on the processing

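No paired analysis was possible because the data used hold 1 list a genotype, so no replicate could be left out or used as a block, and neither was run. Leaving out peaks under 500 bp gave 3440 WT-only peaks, a covered ratio of KO over WT of 1.48, a median pair ratio of 1.11, 1141 genes with H3K4me1 at an end in KO only and 1459 in WT only, 1605 clusters in KO and 800 in WT, and 1248 genes 2-fold higher in KO. Here and with equal covered length, a peak also counted as genotype-only if its only partners were left out. At the limit of 200 bp the covered ratio was 1.23. Equal covered length kept 30948 KO peaks of at least 356 bp and every WT peak, which sets the covered ratio to 1.00 by construction. It gave 3369 KO-only and 20404 WT-only peaks, and 187 genes with an end in KO only and 4029 in WT only. Genes 2-fold higher were 229 in KO and 519 in WT. As only KO peaks were left out, these KO counts could only fall and these WT counts only rise. The median pair ratio was 1.20, and KO had 2903 clusters. Merging peaks up to 200 bp apart left the covered ratio at 1.19. A stitching gap of 5000 bp gave 3457 KO and 3091 WT clusters. Without flanks 68 genes were 2-fold higher in WT, and by number of peaks 197 were 2-fold higher in KO. The median pair ratio at gene ends, with alternatives chosen after seeing the data, was 1.04 with peaks under 500 bp left out, 1.07 with equal covered length and 1.01 for ends within 2000 bp. In every alternative run, KO-only peaks lay at gene ends less often (5.06% to 13.5%) than WT-only peaks (17.8% to 39.5%), and KO peaks away from gene ends were the wider of their pairs. The causes of these shifts, other than the smaller sets of peaks, were not tested. Depth and peak height are unknown, and a peak missing from a list may lie just under its threshold.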

Other observations

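Gene lists with little endothelial specificity gave mixed values. Immediate early and shear stress genes, which endothelial cells switch on by flow, had a median KO over WT ratio of covered length of 1.00 over 13 genes tested, with 7 above 1. Fos had 1313 bp in KO and 1378 bp in WT, Jun 1635 bp in KO and 1545 bp in WT, and Klf4 1360 bp in KO and 1397 bp in WT. Hypoxia genes had a median of 1.39, with 7 of 8 above 1. Among DNA methylation genes, the demethylase gene Tet2 had 1638 bp in KO and 1339 bp in WT, Tet1 1485 bp in KO and 1831 bp in WT, and Tet3 4132 bp in KO and 4971 bp in WT, and the list's median was 0.994 over 9 genes. The list of H3K4 methylation and demethylation, with 18 genes found, also holds the histone acetyltransferase genes Crebbp and Ep300. Of the 18, 6 had H3K4me1 at an end in WT only (Crebbp, Kdm1a, Kdm5a, Ncoa6, Rbbp5 and Wdr5), beside 9.52% of all genes. In KO only there were 0, beside 2.35%. In both lists 7 had it and in neither 5, beside 37.1% and 51.1% of all genes. Housekeeping genes had few peaks outside their starts, with 5 tested and a median of 0.730. Actb had 840 bp in KO and 1151 bp in WT, and Polr2a 218 bp in KO and 840 bp in WT, under the limit of 1000 bp in both lists.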
